A study of Homo sapiens with 13 samples.

Results

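These are 71 genes of the human esophageal cell line TE-7 whose RNA was at least 2-fold lower with interleukin-13 (IL-13) at 24 hr and within a narrower margin of the control at 2 and 6 hr, or above it. They were chosen from RPKM, the reads of a gene scaled to its length and to the reads of the library, through d, the log2 of (IL-13 + 0.1) over (control + 0.1). A gene was taken when d was -1 or less at 24 hr and above -0.5 at both 2 and 6 hr, its RPKM reached 1 in a 24 hr library and its span was at least 300 bp. Symbols that begin with KRT, CLDN, KLK, CALML, CCL, IL, DEFB or TGM (mostly keratins, claudins, kallikreins, chemokines, interleukins, defensins and transglutaminases) were left out, as was a stretch of chromosome 1q21. The tables held 23637 genes, 12278 of these met the limits on level, span and family, and the 71 were 0.578% of the 12278.

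The treated cells received 100 ng/ml of IL-13 and were taken after 2, 6 or 24 hr, and at each time they were set against control cells of the same line, all grown in RPMI medium with serum. RNA was sequenced in 6 libraries, 1 for each treatment and time, and 3 histone marks of active chromatin (H3K4me3, H3K9Ac and H3K27Ac) were profiled with and without IL-13 at 6 hr in 6 ChIP-seq libraries. Each group is therefore 1 sample of 1 line, and no difference at a single time has a replicate check or allows a test. A test of treatment over the 3 times together, which would average a difference chosen to be late, was not made. TE-7 is an esophageal carcinoma line that was once listed as adenocarcinoma and was later traced to squamous carcinoma.

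IL-13 is a type 2 cytokine. It signals through a receptor shared with interleukin-4 and through the transcription factor STAT6, and in the esophagus it is known as a driver of eosinophilic esophagitis, in which squamous epithelium loses part of its differentiated and barrier genes. Squamous cells that reach confluence in culture normally begin to differentiate. Bone morphogenetic proteins, Wnt ligands, Notch and regulators such as OVOL1 and MXD1 take part in the control of proliferation and differentiation. Whether this bears on the cells used here was not tested.

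The 71 include the ligands BMP2 and WNT4, the receptor FGFR3, the transcription regulators ID2, OVOL1 and MXD1, and the metalloproteinases MMP13 and MMP10. Their lower RNA at 24 hr, and d above -0.5 at 2 and 6 hr, are what chose them. THEM5 was 4.54-fold lower with IL-13, BMP2 3.61-fold, WNT4 3.56-fold, ID2 3.38-fold, OVOL1 2.53-fold, MXD1 2.51-fold, MMP13 2.48-fold and FGFR3 2.14-fold. From 6 to 24 hr 25 genes were at least 2-fold higher in the IL-13 libraries (15.3% of all genes that could have been chosen) and 53 in the controls (16.4%), which is a description, since the rule used both 24 hr libraries. In chromatin at 6 hr, H3K27Ac without H3K4me3 stood at the starts of 35.2% of the 71, against 4.21% of all. Most of all genes are higher in RNA, and this share was not taken within ranges of RNA level. Among all genes under 1 RPKM at 6 hr, H3K27Ac stood at 74.2% and H3K4me3 at 60.2%. A share of 4.21% is thus too low for genes of that level. Many of the 71 are low, and with a pseudocount of 1 in place of 0.1 only 25 of them kept d of -1 or less.

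CG dinucleotides at the gene starts depended on the level of the genes compared. The promoters that RefSeq lists for 46 of the 71 genes (build GRCh38.p14, 250 bases before to 50 after a start) had a median ratio of observed to expected CG dinucleotides of 0.66, against 0.85 over 9767 promoters of genes that could have been chosen and 0.58 over all 27305 promoters. In 21 of the 46 (45.7%) the ratio was under 0.6, against 14.9% of the genes that could have been chosen and 51.0% of all promoters. Median GC content was close, 63.8% against 65.7% of the genes that could have been chosen. Among genes under 1 RPKM at 6 hr, which hold 28 of the 46, the ratio was under 0.6 in 35.7%, against 37.3% of all genes in that range. From 1 to under 5 RPKM it was so in 5 of 10, against 20.3%, and at 5 RPKM or more in 6 of 8, against 11.2%. A promoter in RefSeq may belong to another start than the one in the RNA tables, which use build hg19. The 4 promoters below span that range, with CG dinucleotides in capitals. ID2 (chr2:8681806-8682105, plus strand) had 33 CG and FGFR3 (chr4:1793043-1793342, plus strand) 51, while ALPP (chr2:232378501-232378800, plus strand) had 6 and THEM5 (chr1:151853663-151853962, minus strand) 3.
ID2: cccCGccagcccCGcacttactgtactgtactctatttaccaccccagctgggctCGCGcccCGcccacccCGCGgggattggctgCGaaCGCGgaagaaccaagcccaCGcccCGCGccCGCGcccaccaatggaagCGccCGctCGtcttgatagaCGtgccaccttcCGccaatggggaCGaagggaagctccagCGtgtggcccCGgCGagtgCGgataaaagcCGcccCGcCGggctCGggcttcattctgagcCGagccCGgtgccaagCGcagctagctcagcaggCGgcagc
FGFR3: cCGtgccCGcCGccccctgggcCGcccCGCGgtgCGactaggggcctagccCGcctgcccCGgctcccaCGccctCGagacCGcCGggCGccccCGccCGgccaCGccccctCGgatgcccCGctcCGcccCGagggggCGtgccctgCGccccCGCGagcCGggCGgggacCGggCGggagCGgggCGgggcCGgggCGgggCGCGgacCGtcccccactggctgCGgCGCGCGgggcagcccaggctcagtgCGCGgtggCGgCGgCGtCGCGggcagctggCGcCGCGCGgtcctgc
ALPP: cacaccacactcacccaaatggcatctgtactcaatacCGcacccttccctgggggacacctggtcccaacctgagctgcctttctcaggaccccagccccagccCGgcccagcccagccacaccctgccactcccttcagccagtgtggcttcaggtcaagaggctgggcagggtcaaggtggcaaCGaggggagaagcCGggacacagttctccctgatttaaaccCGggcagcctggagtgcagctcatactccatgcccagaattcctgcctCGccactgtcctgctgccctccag
THEM5: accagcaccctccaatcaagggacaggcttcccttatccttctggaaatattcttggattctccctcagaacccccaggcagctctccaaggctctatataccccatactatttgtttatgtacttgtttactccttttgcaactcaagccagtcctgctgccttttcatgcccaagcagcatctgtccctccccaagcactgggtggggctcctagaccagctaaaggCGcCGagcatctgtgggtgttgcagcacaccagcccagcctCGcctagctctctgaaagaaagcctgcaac

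Short elements were searched in the same 46 promoters. The letters TGANTCA are a looser form of the site of AP-1 dimers of FOS and JUN proteins, in which N is usually C or G. They occurred on either strand in 5 of the 46 promoters (10.9%), against 4.27% of the genes that could have been chosen and 7.76% of all promoters. In MMP10 (TGAATCA) and ATP10B (TGATTCA) the only match lacked the usual C or G. The TATA box letters TATAAA also occurred in 5 of 46 (10.9%), against 5.24% of the genes that could have been chosen and 11.95% of all promoters. Both were present in MMP10 (chr11:102780579-102780878, minus strand) and ECM1 (chr1:150507859-150508158, plus strand), which are printed with these 2 elements in capitals.
MMP10: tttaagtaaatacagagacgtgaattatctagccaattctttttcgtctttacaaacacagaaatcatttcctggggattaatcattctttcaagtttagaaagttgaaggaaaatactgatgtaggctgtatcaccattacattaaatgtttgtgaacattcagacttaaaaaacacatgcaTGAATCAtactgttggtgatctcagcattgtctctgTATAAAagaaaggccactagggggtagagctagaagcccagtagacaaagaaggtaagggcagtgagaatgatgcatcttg
ECM1: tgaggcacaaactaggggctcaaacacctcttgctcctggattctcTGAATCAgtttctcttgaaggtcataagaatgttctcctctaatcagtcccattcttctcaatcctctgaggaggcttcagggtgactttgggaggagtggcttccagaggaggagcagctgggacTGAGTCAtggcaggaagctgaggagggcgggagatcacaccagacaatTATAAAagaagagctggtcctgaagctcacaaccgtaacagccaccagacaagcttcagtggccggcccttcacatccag
In MMP10 the AP-1 letters began 67 bases before the start and the TATA letters 31 bases before it. In ECM1 there were 2 AP-1 matches, 204 and 78 bases before the start, and the TATA letters lay 30 bases before it. The STAT6-type element, TTC and GAA with 4 bases between them, was in 4 of the 46 promoters (8.70%), against 4.48% of those that could have been chosen and 6.37% of all, and the form with 3 bases between them was in 4 (8.70%), against 6.205% and 7.88%. The GC box GGGCGG was in 27 (58.7%), against 71.4% and 44.6%, and the TFAP2 letters GCCNNNGGC were in 10 (21.7%), against 32.7% and 23.0%. Grainyhead letters (AACCNGTT) and the E-box CACGTG were each in 2 promoters (4.35%), against 1.32% and 10.3% of the genes that could have been chosen. All elements were searched on both strands, GC box and TFAP2 letters can share bases, and a match is a description of letters in this window.

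At 24 hr the median d of the 71 genes was -1.26, and values ran from -2.41 to -1.02. This is what chose them: 106 genes, or 0.863% of the 12278, were at least 2-fold lower at 24 hr and 66 (0.538%) at least 2-fold higher. The 35 others that were 2-fold lower had already been below -0.5 earlier, 8 at 2 hr only, 19 at 6 hr only and 8 at both. Many of these early d came from values under 1 RPKM in both libraries and are uncertain. At 2 hr the chosen genes had a median of -0.06, against 0.00 over all 12278, and 39 of 71 lay below 0, beside 49.1% of all genes. At 6 hr the median was -0.17, against -0.00, and 48 of 71 lay below 0, beside 51.3%. There were 34 genes below 0 at both early times and 17 above 0 at both. Only 4 of the 71 had a d of -2 or less and 29 lay between -1.2 and -1, just under the limit. In such bulk libraries fewer cells that express a gene and less RNA per cell cannot be told apart.

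**Figure D1:**
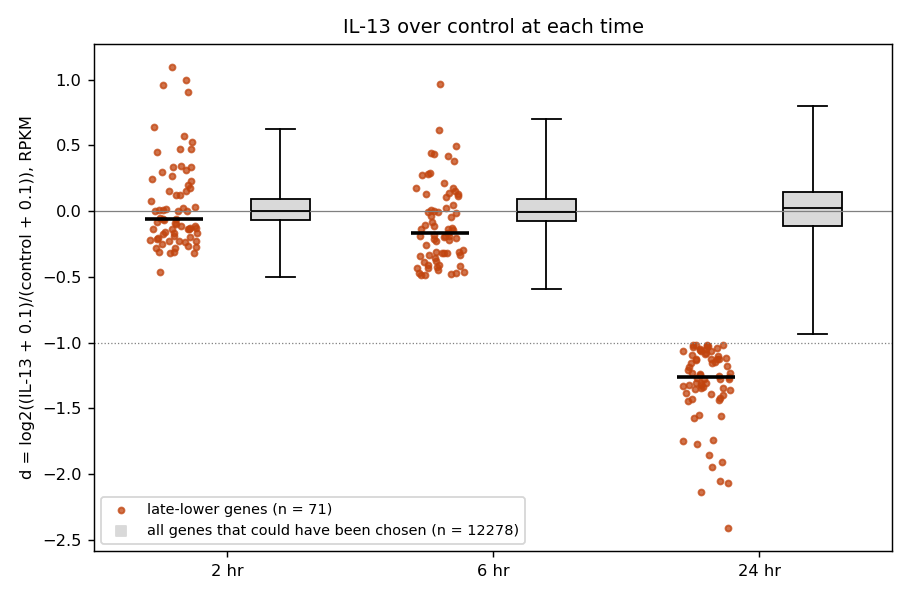
Values of d, IL-13 over control on a log2 scale of RPKM + 0.1, at 2, 6 and 24 hr, for the 71 late-lower genes (points, black bar at the median) and for all 12278 genes that could have been chosen (boxes from the lower to the upper quartile with a line at the median, whiskers to the lowest and highest 1 in 100). The rule holds the points above -0.5 at 2 and 6 hr and at -1 or less at 24 hr, and 8 genes lie above 0.5 at 2 or 6 hr.

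The genes nearest the limit at 24 hr were FAM84A, LOC100129480 and C15orf59, each with d of -1.02. Just outside it, with all other criteria met, were NR4A1, ULBP3 and NIPAL4, each with d of -0.99. At 6 hr the nearest inside the limit of -0.5 were ECM1 and HIST1H4H, both at -0.49, and ALPP at -0.48, and the nearest outside were IRS1 at -0.52, ID1 at -0.55 and DLX2 at -0.55.

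In level the genes were low. Their median at 24 hr was 1.20 RPKM with IL-13, against 3.16 RPKM in the control, where the median of all 12278 genes was 12.7 RPKM with IL-13 and 12.6 RPKM in the control. At 6 hr the medians were 0.879 RPKM with IL-13 and 0.905 RPKM in the control, and at 2 hr 1.26 RPKM with IL-13 and 1.09 RPKM in the control. In the 24 hr control 21 of the 71 stayed under 2 RPKM and 17 reached 10 RPKM. In the authors' deposited table, for whose libraries the submitters' processing notes name DESeq, the adjusted p at 24 hr was under 0.05 for 26 of the 71, beside 0.595% of all genes called lower. These p-values come from the contrast that chose the genes. The same table called none of them at 6 hr, beside 0.586% of all genes in either direction, and none at 2 hr, beside 0.0163%. No p-value was computed here at any time.

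Epithelial markers fitted the label of the line: 8 of 8 were above 10 RPKM in all 6 libraries. At 24 hr 3 of them were higher with IL-13 (EPCAM, KRT18 and SOX2) and 5 lower, and their sum was 2670 RPKM with IL-13, against 3763 RPKM in the control. Most of that gap was KRT5, with 1323 RPKM with IL-13, against 2200 RPKM in the control. Other cell types were near 0, with exceptions. In the 2 hr control GFAP was at 2.06 RPKM and SNAP25 at 3.57 RPKM, and both of these brain transcripts were at 0 with IL-13 at 2 hr. At 24 hr the endothelial gene VWF had 4.21 RPKM with IL-13, against 0.943 RPKM in the control, while CDH5 had 0.0173 RPKM with IL-13 and 0 in the control. Fibroblast markers summed to 3.74 RPKM with IL-13 and 5.35 RPKM in the control at 24 hr, mostly COL1A1. The leukocyte sum was 2.29 RPKM with IL-13 and 4.22 RPKM in the control, mostly CD68. The part of these in the values below was not tested. The 2 and 6 hr controls also shared 359 identical values above 0, none of them in the 71 genes, while no other pair of libraries shared any. The labels do not say whether reads went into both or whether a 2 or 6 hr value is the mean of several read sets, so these 2 controls may not be independent, which touches each change from 2 to 6 hr below.

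The 24 hr libraries took part in the choice, which fixes that the log2 change from 6 to 24 hr is higher in the control than with IL-13, so the changes over time are a description. The median of that change over the 71 genes in the IL-13 libraries was 0.62, against 0.23 over all genes. In the controls it was 1.87, against 0.24. At least 2-fold lower at 24 than at 6 hr were 10 of the 71 in the IL-13 libraries, beside 3.74% of all genes, and 3 in the controls, beside 4.64%. Of the 53 that were 2-fold higher in the controls, 25 were also 2-fold higher in the IL-13 libraries and 48 were higher there by some amount. The 3 times come from separate tables, and the headers of the 24 hr columns carry a date-like number and a tag that the others lack, whose meaning is not stated, so time and the making of the library cannot be told apart.

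The highest of the 6 libraries was the 24 hr control for 56 genes, beside 29.3% of all. The 24 hr IL-13 library lay above each of the 4 libraries of 2 and 6 hr for 34 of the 71, beside 57.2% of all genes, and below each of them for 19, beside 23.8%. Nothing is read from these counts, for the same reason.

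**Figure D2:**
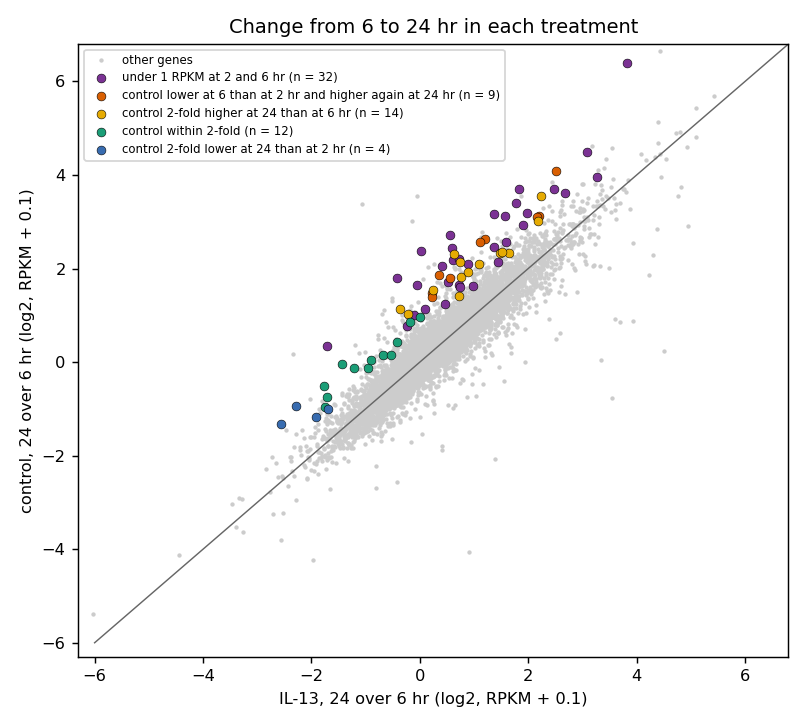
Log2 change from 6 to 24 hr on RPKM + 0.1 in the IL-13 libraries (horizontal) and in the control libraries (vertical), 1 library per treatment and time. Grey points are the other genes that could have been chosen and coloured points the 71, by their course in the control. All 71 lie above the diagonal, as the rule requires, and 53 lie above 1 on the vertical axis.

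The 71 fell into 5 courses, defined after their values were seen. Under 1 RPKM in every library of 2 and 6 hr were 32 genes (5.30% of all genes have this course), among them THEM5, WNT6, DLX5, BMF and GPER. In 9 genes (0.888% of all) the control was at least 2-fold lower at 6 than at 2 hr and high again at 24 hr: BMP2, WNT4, AMTN, OVOL1, NGFR, MXD1, MMP13, STEAP4 and MMP10. In 14 genes (11.9% of all) the control was 2-fold higher at 24 than at 6 hr without that dip, as in ID2, FGFR3, LY6D and UPK3BL. In 12 genes (78.0% of all), among them ALPP, IGF2, GATA2 and IER5L, the control met none of these and was not 2-fold lower at 24 than at 2 hr. In these 12 genes the 24 hr control was also within 2-fold of that at 6 hr, which the share of all genes does not require. Their median change from 6 to 24 hr was -0.93 in the IL-13 libraries, against 0.00 in the controls. In 4 genes (3.94% of all) the control itself was 2-fold lower at 24 than at 2 hr: CSPG4, INHBA, PLAT and PHLDA2.

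**Figure D3:**
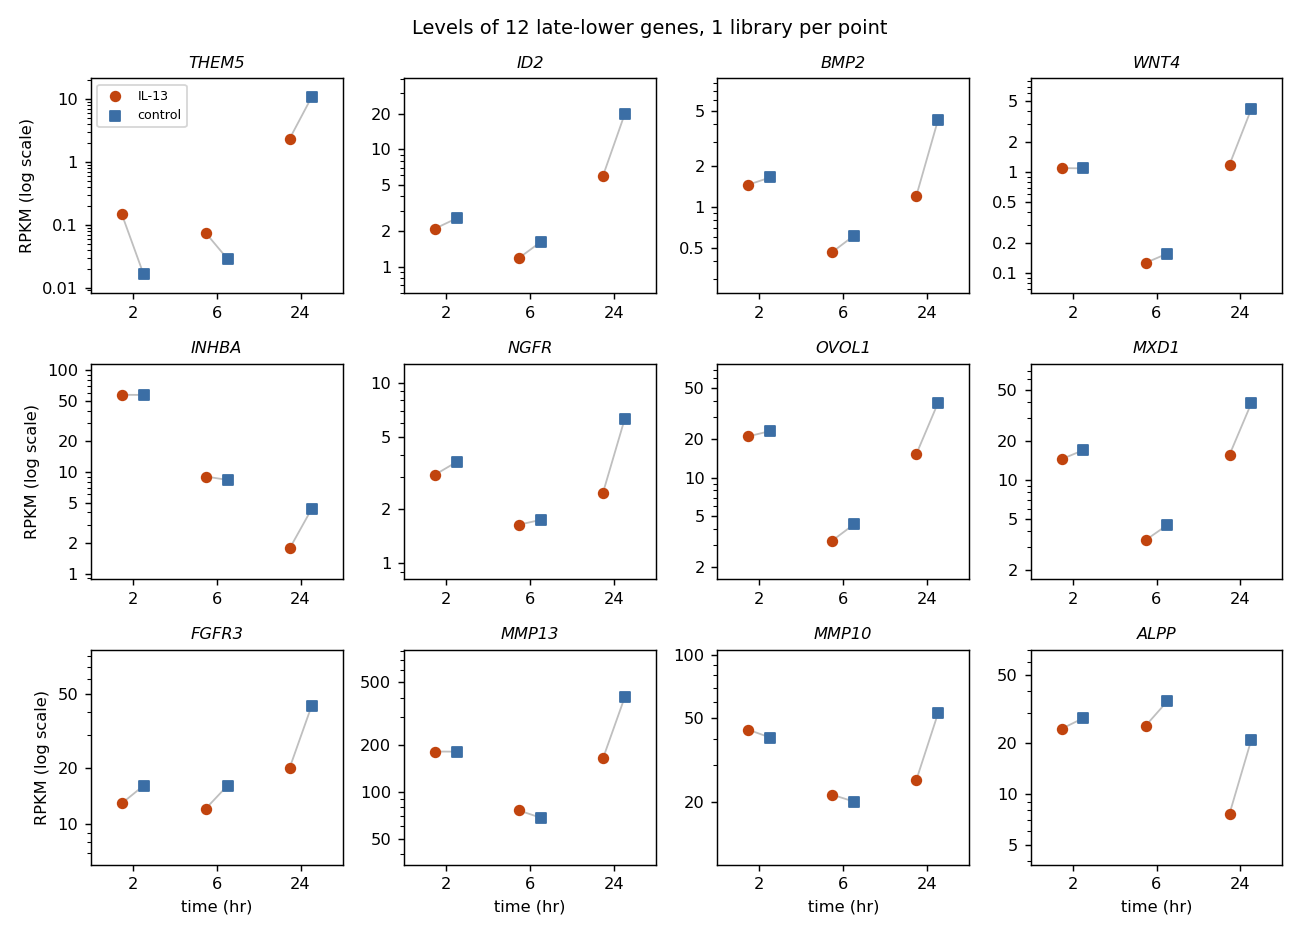
RPKM on a log axis of 12 of the 71 genes at 2, 6 and 24 hr, with IL-13 (circles, left) and in the control (squares, right), 1 library per point. At 2 and 6 hr the 2 points of a gene are close except in THEM5, whose early levels are under 0.2 RPKM, and at 24 hr the circle lies below the square in all 12.

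The secreted signals were BMP2, WNT4, WNT6, INHBA and IGF2. BMP2, a bone morphogenetic protein, had 1.45, 0.469 and 1.2 RPKM with IL-13 at 2, 6 and 24 hr, against 1.64, 0.618 and 4.33 RPKM in the controls. WNT4, a Wnt ligand, had 1.096, 0.126 and 1.19 RPKM with IL-13 at 2, 6 and 24 hr, against 1.09, 0.156 and 4.23 RPKM in the controls. In both the 24 hr control was the highest of the 6 libraries and the 24 hr IL-13 library lay close to the 2 hr level. WNT6, another Wnt ligand, had 0.205, 0.274 and 1.17 RPKM with IL-13 at 2, 6 and 24 hr, against 0.2501, 0.2096 and 3.17 RPKM in the controls, so both 24 hr libraries were above all earlier ones. INHBA encodes the chain of activin A and had 57.2, 9.01 and 1.77 RPKM with IL-13 at 2, 6 and 24 hr, against 57.1, 8.34 and 4.304 RPKM in the controls. It was lower at each later time in both treatments, and only at 24 hr did the 2 libraries separate. IGF2, the imprinted insulin-like growth factor, had 52.4, 28.9 and 21.6 RPKM with IL-13 at 2, 6 and 24 hr, against 55.6, 33.97 and 45.96 RPKM in the controls, which put the 24 hr IL-13 library below the 5 others. On d at 24 hr, BMP2 was at -1.77, WNT4 at -1.75, WNT6 at -1.36, INHBA at -1.24 and IGF2 at -1.08.

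Among the receptors, NGFR, a surface receptor of basal cells, had 3.101, 1.64 and 2.46 RPKM with IL-13 at 2, 6 and 24 hr, against 3.65, 1.74 and 6.34 RPKM in the controls. FGFR3, a fibroblast growth factor receptor of the epidermis, had 12.9, 12.1 and 20.1 RPKM with IL-13 at 2, 6 and 24 hr, against 16.1, 16.1 and 43.0 RPKM in the controls. Both were highest in the 24 hr control, and in FGFR3 the IL-13 library was the lower one at all 3 times, with d of -0.31, -0.41 and -1.09. GPER, a G protein-coupled estrogen receptor, had 0.598, 0.762 and 3.13 RPKM with IL-13 at 2, 6 and 24 hr, against 0.668, 0.772 and 6.56 RPKM in the controls, and both 24 hr libraries were above the earlier ones. CLEC7A, the beta-glucan receptor dectin-1, had 0.247, 0.253 and 0.416 RPKM with IL-13 at 2, 6 and 24 hr, against 0.2802, 0.204 and 1.89 RPKM in the controls, all under 2 RPKM. On d at 24 hr these were -1.33 for NGFR, -1.04 for GPER and -1.95 for CLEC7A.

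Of 8 transcription regulators, ID2 (chromosome 2, 8822113 to 8824583, plus strand, hg19), an inhibitor of basic helix-loop-helix factors and a target of BMP signalling, had 2.12, 1.19 and 5.96 RPKM with IL-13 at 2, 6 and 24 hr, against 2.59, 1.63 and 20.2 RPKM in the controls. Its CG-rich promoter is printed above. OVOL1, a zinc finger repressor at work in epithelial differentiation, had 21.1, 3.23 and 15.3 RPKM with IL-13 at 2, 6 and 24 hr, against 23.2, 4.33 and 38.7 RPKM in the controls, and MXD1, a MAX partner that opposes MYC, had 14.5, 3.42 and 15.7 RPKM with IL-13 at 2, 6 and 24 hr, against 17.02, 4.49 and 39.4 RPKM in the controls. Both had a dip at 6 hr in both treatments, and at 24 hr the IL-13 library of OVOL1 lay below its 2 hr libraries while that of MXD1 lay between them. ZNF703, a zinc finger corepressor, had 3.69, 4.16 and 7.81 RPKM with IL-13 at 2, 6 and 24 hr, against 3.63, 4.82 and 18.6 RPKM in the controls. GATA2, a zinc finger factor best known in blood cells, had 2.86, 2.98 and 2.61 RPKM with IL-13 at 2, 6 and 24 hr, against 2.57, 3.23 and 5.94 RPKM in the controls. Neither had a dip at 6 hr, and the 24 hr IL-13 level of GATA2 was near its early ones. DLX5, a homeobox factor, had 0.125, 0.0767 and 1.402 RPKM with IL-13 at 2, 6 and 24 hr, against 0.0616, 0.0453 and 3.16 RPKM in the controls, and SAMD11, a SAM domain protein, had 0.717, 0.147 and 0.782 RPKM with IL-13 at 2, 6 and 24 hr, against 0.469, 0.146 and 3.097 RPKM in the controls. ZNF222 was at 0.951 RPKM with IL-13 and 2.10 RPKM in the control at 24 hr. In DLX5 both 24 hr libraries were above all earlier ones, and the early values of SAMD11 were under 1 RPKM. On d at 24 hr, SAMD11 was at -1.86, ID2 at -1.74, OVOL1 at -1.33, MXD1 at -1.32, ZNF703 at -1.25, GATA2 at -1.16 and DLX5 at -1.12.

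Proteases and matrix proteins held the most abundant gene of the set. MMP13 (chromosome 11, 102813721 to 102826463, minus strand, hg19), collagenase 3, had 180.5, 75.7 and 163 RPKM with IL-13 at 2, 6 and 24 hr, against 180.1, 67.9 and 404 RPKM in the controls. MMP10 (chromosome 11, 102641233 to 102651359, minus strand, hg19), stromelysin 2, had 44.1, 21.6 and 25.3 RPKM with IL-13 at 2, 6 and 24 hr, against 40.5, 20.02 and 52.9 RPKM in the controls. Both dipped at 6 hr in both treatments, and at 24 hr the control was the highest library. They lie 162 kb apart in the matrix metalloproteinase cluster of chromosome 11. Among others of the cluster, MMP1, MMP12 and MMP3 were also lower with IL-13 at 24 hr but did not reach the limit of -1. Their d was -0.39, -0.71 and -0.74, with MMP3 under 1 RPKM in both 24 hr libraries. MMP7 went the other way at all 3 times, with d of 1.44, 3.36 and 2.97. MMP7 was at 9.43 RPKM with IL-13, against 1.12 RPKM in the control at 24 hr, so genes of 1 cluster had ratios of both signs. CSPG4, the membrane proteoglycan NG2, had 4.93, 4.34 and 0.654 RPKM with IL-13 at 2, 6 and 24 hr, against 5.398, 5.43 and 2.11 RPKM in the controls, with the 24 hr IL-13 library the lowest of the 6. AMTN, an enamel matrix protein, had 6.77, 0.708 and 0.931 RPKM with IL-13 at 2, 6 and 24 hr, against 5.302, 0.617 and 2.52 RPKM in the controls. In AMTN both 2 hr libraries were higher than all later ones. PROC, the zymogen of the anticoagulant protein C, had 2.15, 0.956 and 2.16 RPKM with IL-13 at 2, 6 and 24 hr, against 2.34, 1.21 and 5.55 RPKM in the controls, and EDIL3, an integrin-binding matrix protein, had 3.68, 1.73 and 2.95 RPKM with IL-13 at 2, 6 and 24 hr, against 2.98, 1.56 and 7.26 RPKM in the controls. In both genes the 24 hr IL-13 level was close to that of 2 hr. ECM1, a matrix glycoprotein of skin, was at 1.45 RPKM with IL-13 and 3.42 RPKM in the control at 24 hr. PLAT, tissue plasminogen activator, was at 1.49 RPKM with IL-13 and 3.37 RPKM in the control, below all of its earlier values in both treatments.

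The enzymes numbered 13, with a median d at 24 hr of -1.34. THEM5 (chromosome 1, 151819577 to 151826173, minus strand, hg19), a mitochondrial acyl-CoA thioesterase, had 0.148, 0.0742 and 2.36 RPKM with IL-13 at 2, 6 and 24 hr, against 0.0162, 0.0286 and 10.7 RPKM in the controls. It was nearly silent at 2 and 6 hr, and d at 24 hr was -2.14. ALPP (chromosome 2, 233243348 to 233247599, plus strand, hg19), placental alkaline phosphatase, had 24.1, 25.1 and 7.64 RPKM with IL-13 at 2, 6 and 24 hr, against 27.9, 35.1 and 20.9 RPKM in the controls. Its neighbour ALPPL2, the germ cell form, had 9.03, 8.64 and 5.38 RPKM with IL-13 at 2, 6 and 24 hr, against 10.9, 11.8 and 13.2 RPKM in the controls. The 2 genes lie 24.0 kb apart and are near-identical in sequence, so reads could have been split between them, and their values are uncertain for that reason. In both the 24 hr IL-13 library was the lowest of the 6.

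The aldo-keto reductase AKR1B10, which reduces retinal and other aldehydes, had 2.31, 2.32 and 0.938 RPKM with IL-13 at 2, 6 and 24 hr, against 2.605, 2.898 and 2.63 RPKM in the controls. AKR1C2, which acts on steroids, had 1.34, 1.504 and 2.62 RPKM with IL-13 at 2, 6 and 24 hr, against 1.61, 1.77 and 6.49 RPKM in the controls. Both have close paralogs, which leaves their counts uncertain. AKR1B10 was lowest in the 24 hr IL-13 library, while AKR1C2 was higher in both 24 hr libraries than at any earlier time. ACHE, acetylcholinesterase, had 0.625, 0.402 and 1.42 RPKM with IL-13 at 2, 6 and 24 hr, against 0.611, 0.526 and 3.58 RPKM in the controls. BCO2, which cleaves carotenoids, had 0.644, 0.469 and 0.952 RPKM with IL-13 at 2, 6 and 24 hr, against 0.603, 0.526 and 2.57 RPKM in the controls. MFNG, a glycosyltransferase that modifies Notch receptors, had 2.21, 1.82 and 0.469 RPKM with IL-13 at 2, 6 and 24 hr, against 2.19, 2.36 and 1.16 RPKM in the controls. In ACHE both 24 hr libraries were above all earlier ones, and in MFNG both were below them. ENTPD8, an ectonucleotidase, had 0.539, 0.333 and 0.225 RPKM with IL-13 at 2, 6 and 24 hr, against 0.585, 0.295 and 1.27 RPKM in the controls. B3GNT8, which extends sugar chains, had 0.144, 0.169 and 0.304 RPKM with IL-13 at 2, 6 and 24 hr, against 0.154, 0.207 and 1.57 RPKM in the controls. COX6B2, a testis form of a cytochrome oxidase subunit, had 0.883, 0.413 and 0.686 RPKM with IL-13 at 2, 6 and 24 hr, against 0.679, 0.3696 and 2.04 RPKM in the controls. All 3 reached 1 RPKM only in the 24 hr control. The other 2 enzymes were MGLL, monoglyceride lipase, at 1.496 RPKM with IL-13 and 3.38 RPKM in the control at 24 hr, and STEAP4, a metalloreductase, at 0.561 RPKM with IL-13 and 1.45 RPKM in the control.

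Channels and transporters numbered 6, with a median d at 24 hr of -1.24. CLIC3, a chloride intracellular channel protein, had 7.56, 5.62 and 4.82 RPKM with IL-13 at 2, 6 and 24 hr, against 8.204, 6.41 and 13.1 RPKM in the controls, and CALHM3, a pore subunit of taste cells, had 0.491, 0.274 and 0.259 RPKM with IL-13 at 2, 6 and 24 hr, against 0.594, 0.332 and 1.25 RPKM in the controls. CLIC3 was the most abundant of the 6, and its 24 hr IL-13 level was its lowest. ABCB6, ATP10B, SLC39A2 and SPNS2 were between 0.415 and 0.804 RPKM with IL-13 and between 1.13 and 1.75 RPKM in the control at 24 hr. The cell death regulators were the BH3-only proteins BMF and HRK. BMF had 0.4399, 0.224 and 3.02 RPKM with IL-13 at 2, 6 and 24 hr, against 0.377, 0.307 and 6.24 RPKM in the controls, and HRK was at 1.23 RPKM with IL-13 and 2.75 RPKM in the control at 24 hr. Both BH3-only genes were under 1 RPKM at the 2 earlier times, and both 24 hr libraries were above those.

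Among the 15 other proteins, UPK3BL, a uroplakin-like membrane protein, had 24.3, 17.1 and 47.96 RPKM with IL-13 at 2, 6 and 24 hr, against 26.8, 23.7 and 119 RPKM in the controls. RASA4, a Ras GTPase-activating protein that lies 20.3 kb from UPK3BL, had 2.79, 1.5 and 4.91 RPKM with IL-13 at 2, 6 and 24 hr, against 2.93, 2.11 and 11.04 RPKM in the controls. Its pseudogene RASA4CP, elsewhere on chromosome 7, had 1.41, 1.01 and 3.07 RPKM with IL-13 at 2, 6 and 24 hr, against 1.61, 1.16 and 6.33 RPKM in the controls. In all 3 both 24 hr libraries were above the earlier ones. They belong to duplicated sequence in which reads may be shared, so they are not independent. LY6D, a surface protein of stratified epithelium, had 3.34, 2.07 and 9.69 RPKM with IL-13 at 2, 6 and 24 hr, against 3.55, 2.89 and 24.2 RPKM in the controls. PHLDA2, an imprinted growth regulator, had 84.02, 45.1 and 11.9 RPKM with IL-13 at 2, 6 and 24 hr, against 105, 56.2 and 24.7 RPKM in the controls, lower at each later time in both treatments. IER5L, an immediate early response protein, had 16.3, 15.8 and 8.05 RPKM with IL-13 at 2, 6 and 24 hr, against 18.95, 19.4 and 17.7 RPKM in the controls, with the 24 hr IL-13 library about 2-fold below the 5 others. CARD16, an inhibitor of caspase 1, had 0.843, 1.03 and 1.65 RPKM with IL-13 at 2, 6 and 24 hr, against 0.7498, 0.702 and 3.88 RPKM in the controls, and CHP2, a calcineurin B homolog, had 0.304, 0.2299 and 0.874 RPKM with IL-13 at 2, 6 and 24 hr, against 0.368, 0.231 and 2.77 RPKM in the controls. RAB26, a small GTPase of secretory vesicles, had 0.119, 0.142 and 0.527 RPKM with IL-13 at 2, 6 and 24 hr, against 0.151, 0.07896 and 1.498 RPKM in the controls. All 3 were highest in the 24 hr control. The remaining 7 (AIM1L, THEMIS2, KLHDC7B, CCDC88B, FAM84A, LOC100129480 and C15orf59) had d at 24 hr between -1.21 and -1.02, with 0.668 to 1.57 RPKM with IL-13 and 1.53 to 3.28 RPKM in the control.

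The 8 pseudogenes, antisense and noncoding genes were mostly near 1 RPKM. LOC729739 had the lowest d of all, -2.41, with 0.727, 0.707 and 0.146 RPKM with IL-13 at 2, 6 and 24 hr, against 0.8997, 0.9204 and 1.203 RPKM in the controls. LOC100192204 had 2.998, 2.01 and 0.684 RPKM with IL-13 at 2, 6 and 24 hr, against 2.14, 2.31 and 2.24 RPKM in the controls. In both the 24 hr IL-13 library was the lowest. CECR5-AS1 had 0.565, 0.668 and 0.553 RPKM with IL-13 at 2, 6 and 24 hr, against 0.815, 0.924 and 1.65 RPKM in the controls. PRKAG2-AS1 had 0.743, 0.516 and 0.527 RPKM with IL-13 at 2, 6 and 24 hr, against 0.349, 0.216 and 1.54 RPKM in the controls, with the IL-13 library the higher one at 2 and 6 hr. FABP5P3, a pseudogene of the fatty acid binding protein FABP5, had 1.26, 1.37 and 0.334 RPKM with IL-13 at 2, 6 and 24 hr, against 1.39, 1.51 and 1.03 RPKM in the controls. Whether reads were counted by strand is not given in the sources used here, so reads of antisense genes and their partners cannot be told apart, and pseudogene reads may stem from the parent gene. The histone gene HIST1H2AE was at 1.01 RPKM with IL-13 and 2.22 RPKM in the control at 24 hr. HIST1H4H, 67.6 kb away, was at 0.763 RPKM with IL-13 and 1.97 RPKM in the control.

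Chromosome 7 held 12 of the 71 genes (16.9%), beside 4.98% of the genes that could have been chosen, and 3 of the 12 were the duplicated genes RASA4, RASA4CP and UPK3BL. Chromosomes 2 and 11 held 8 each (11.3%), beside 6.71% and 5.67%. As a description these shares carry no test, and 4 pairs of the 71 lay within 200 kb of each other and were given with the genes above.

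Counting error could be set beside 38 genes. In 24 hr libraries RPKM lay on whole reads, at a depth of 14.02 M reads (megareads) with IL-13 and 13.6 M reads in the control, and for 38 of 48 genes with a single listed transcript the smallest pair of whole reads that gives both values was found. The true reads may be a multiple of these, so the exact 95% intervals of the ratio, from a conditional binomial, tend to be too wide. They cover counting error only and not the spread between cultures. The same search in one-exon genes of known length gave a length that divides the true one in 60 of 68 and not in the others. The intervals are of the values that chose the genes, so that most of them lie below 1 is built in. They serve only to show how few reads some values may rest on. The upper bound of the ratio of IL-13 over control was below 0.5 in 6 genes, from 0.5 to under 1 in 29 and 1 or above in 3 (FABP5P3, HIST1H4H and HIST1H2AE).

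The 6 genes whose interval ended below 0.5 were THEM5, BMP2, WNT4, ID2, CSPG4 and CHP2. THEM5 had 38 reads with IL-13 and 167 in the control, a ratio of 0.220 (0.151 to 0.315). ID2 had 114 reads with IL-13 and 373 in the control, a ratio of 0.296 (0.238 to 0.366). BMP2 had 53 with IL-13 and 185 in the control, a ratio of 0.277 (0.200 to 0.378). WNT4 had 65 with IL-13 and 224 in the control, a ratio of 0.281 (0.210 to 0.372). All reads in this paragraph are the smallest that fit, and they were fewer in other genes of low d. LOC729739, with the lowest d, rested on 1 read with IL-13 and 8 in the control, a ratio of 0.121 (0.00273 to 0.902). B3GNT8 rested on 4 reads with IL-13 and 20 in the control, a ratio of 0.194 (0.0481 to 0.578). CALHM3 rested on 3 with IL-13 and 14 in the control, a ratio of 0.207 (0.0382 to 0.743). On these smallest reads, which the true reads may exceed, the control had under 30 in 10 of the 38 and 100 or more in 17.

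**Figure D4:**
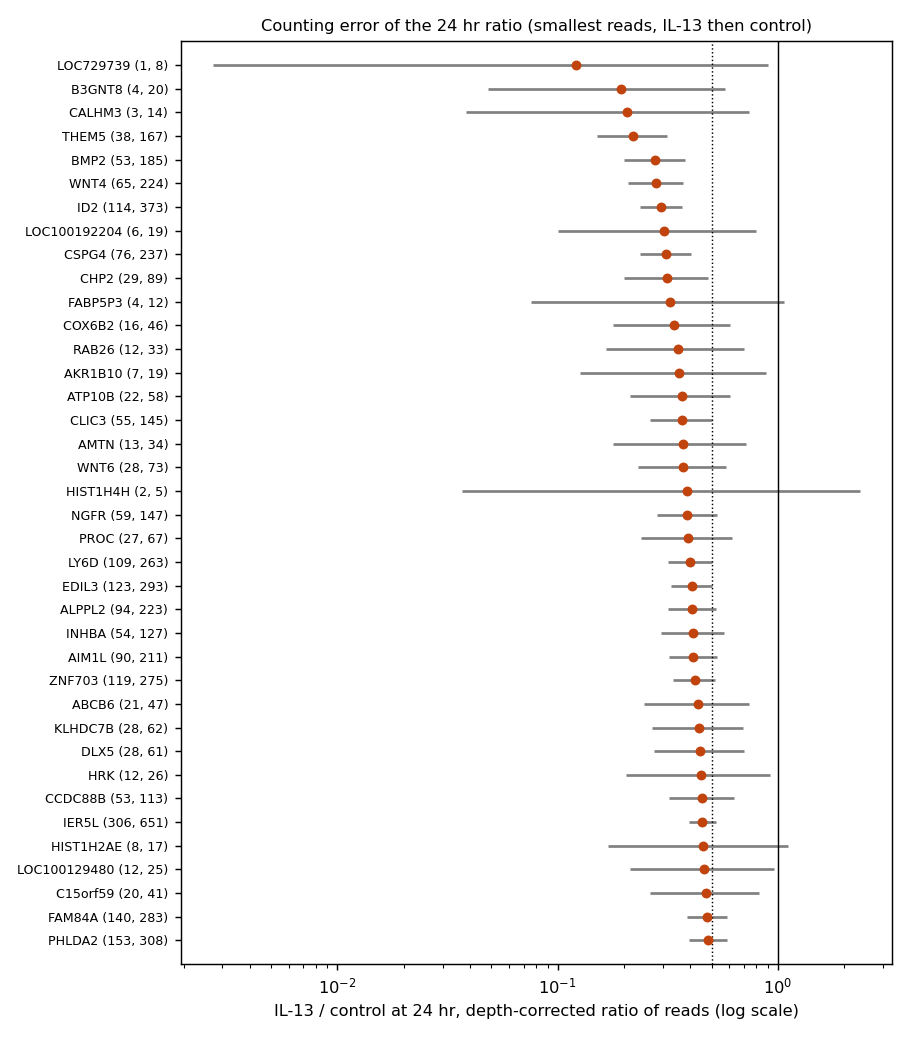
Depth-corrected ratio of reads of IL-13 over control at 24 hr (log axis) with its exact 95% interval for the 38 genes whose reads could be recovered, smallest whole reads with IL-13 and then in the control in brackets. The solid line is no difference and the dotted line a ratio of 0.5. The intervals of 3 genes reach 1, and 6 end below 0.5.

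The histone marks were not used in the choice. They were taken at 6 hr, a time at which the choice held d above -0.5. H3K4me3 and H3K9Ac mark active promoters and H3K27Ac marks active promoters and enhancers. The authors' deposited tables list peaks by gene start, with M, the rescaled log2 of library 1 over library 2. Neither headers nor labels say which library had IL-13, so M carries no direction of treatment.

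An H3K4me3 peak stood at the start of 35 of the 71 genes (49.3%), beside 87.5% of all genes that could have been chosen. H3K9Ac stood at 48 (67.6%), beside 90.4%, and H3K27Ac at 57 (80.3%), beside 91% of all. All 3 marks were present at 28 genes (39.4%), against 86.6% of all, and none at 9 (12.7%), against 7.84%. H3K27Ac without H3K4me3, given above as a share, was found at 25 genes, and that class was not taken within ranges of RPKM. The genes are low in RNA at 6 hr, so the shares of single marks were also taken within ranges of RPKM at 6 hr. H3K4me3 was at 37.8% of the 37 genes under 1 RPKM, against 60.2% of all in that range. It was at 68.2% of the 22 genes from 1 to under 5 RPKM, against 79.1%, and at 50% of the 12 genes of 5 RPKM or more, against 93.2%. For H3K27Ac the shares were 75.7% against 74.2%, 81.8% against 84.3% and 91.7% against 95.1%. For H3K9Ac they were 67.6% against 70.9%, 68.2% against 83.5% and 66.7% against 94.8%. The gap in H3K4me3 was thus present in each range and that in H3K27Ac was small in each. That in H3K9Ac was small under 1 RPKM and wider in each higher range.

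Base composition moved with this. Among promoters with a CG ratio under 0.6, H3K4me3 stood at 6 of 21 of the late-lower genes (28.6%), against 69.7% of all. At a ratio of 0.6 or more it stood at 17 of 25 (68%), against 93.0%. H3K9Ac stood at 11 of 21 (52.4%), against 78.2%, in the first class, and at 23 of 25 (92%), against 94.5%, in the second. H3K27Ac stood at 18 of 21 (85.7%), against 81.6%, in the first class, and at 21 of 25 (84%), against 94.5%, in the second. ID2 and FGFR3, printed above as CG-rich, had all 3 marks. ALPP had H3K9Ac and H3K27Ac without H3K4me3, and THEM5, MMP10 and ECM1 had H3K27Ac alone. No test was made of these shares, and the part of base composition in them was not tested.

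**Figure D5:**
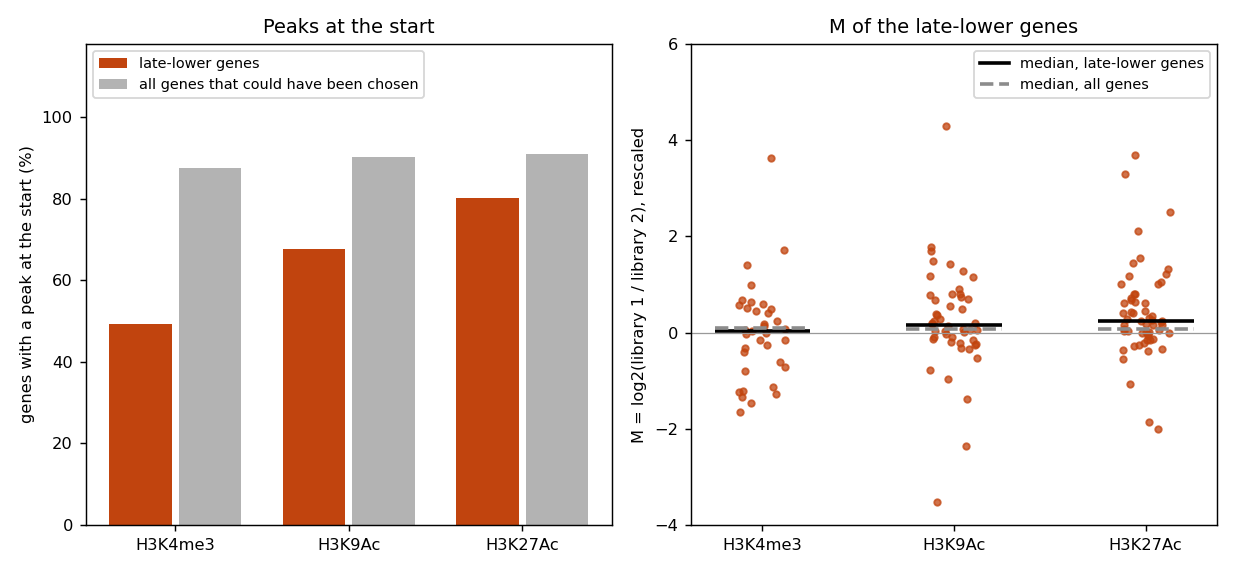
Share of genes with a peak at the start for each mark (left, from 0) in the 71 late-lower genes and in the 12278 genes that could have been chosen, and M of the late-lower genes (right), with the median of the 71 as a black line and that of all genes as a dashed line. The shares for H3K4me3 are 49.3% and 87.5%, and those for H3K27Ac are 80.3% and 91%.

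Where a peak was present, M was widely spread. Its median was 0.04 for H3K4me3, 0.16 for H3K9Ac and 0.23 for H3K27Ac, against 0.09, 0.08 and 0.08 over all genes. M was above 0 at 18 of 35 starts for H3K4me3 (56.5% of all genes), 31 of 48 for H3K9Ac (58.5%) and 40 of 57 for H3K27Ac (59.2%). M of 1 or more was found at 3 of 35 starts for H3K4me3 (5.47% of all genes), 8 of 48 for H3K9Ac (2.58%) and 12 of 57 for H3K27Ac (3.45%). M of -1 or less was found at 7 (4.64%), 3 (2.08%) and 3 (2.02%). At a level of 30 or more in the higher library there were 18 H3K4me3 peaks, 1 with M of 1 or more (4.71% of all genes) and 2 with M of -1 or less (3.2%). Of 30 such H3K9Ac peaks 1 had M of 1 or more (1.81%) and 1 M of -1 or less (1.21%), and of 40 H3K27Ac peaks 4 (2.52%) and 2 (1.21%). In the authors' deposited tables the peak was listed as common to both libraries in 23 of 35 (65.7%) for H3K4me3, 37 of 48 (77.1%) for H3K9Ac and 41 of 57 (71.9%) for H3K27Ac, against 94.1%, 96.6% and 96.2% over all genes. Most of all genes are higher in RNA. Under 1 RPKM at 6 hr the common shares were 64.3%, 68% and 64.3%, against 78.5%, 80.8% and 81.9% over all genes of that range. For H3K27Ac in that range, M of 1 or more was found at 25%, against 9.90%, and M of -1 or less at 7.14%, against 8.63%.

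M varied between starts. AIM1L had the highest -log10 p of the 71 for H3K27Ac, 11.95 in the authors' deposited table with an M of 3.29, and no peak of the other marks. THEM5 had an H3K27Ac M of 2.11, but in a weak peak listed for library 1 only, with a mean log2 level of 2.64. WNT6 had an H3K27Ac M of -1.85 at a mean log2 level of 4.83. FGFR3 had M of -1.21 for H3K4me3, 0.81 for H3K9Ac and -1.06 for H3K27Ac, and NGFR -1.13, -1.39 and 1.33. ID2 had M of 1.40 for H3K4me3 and 0.37 and 0.01 for the acetyl marks. Library 1 of a mark need not be of the same treatment as library 1 of another, so M of different marks cannot be set against each other.

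Other genes of the pathways were read from 14 lists, drawn up with earlier results of these data known. All counts are of genes with an RPKM of 1 or more at 24 hr and are to be read beside 0.863% lower and 0.538% higher over all genes, whose median d was 0.02. Of 26 genes of the TGF-beta and BMP list 5 were 2-fold lower with IL-13, none 2-fold higher, and the median d was -0.38. BMP2, ID2 and INHBA are among the 71, and the other 2 missed the early criterion. ID1, a second BMP target, was at 239 RPKM with IL-13 and 618 RPKM in the control at 24 hr, with d of -0.45 at 2 hr and -0.55 at 6 hr. SMAD6, an inhibitor of BMP signalling, was at 1.86 RPKM with IL-13 and 4.70 RPKM in the control. The BMP target ID3 differed from ID1 early: at 2 hr it had 53.1 RPKM with IL-13, against 18.01 RPKM in the control, and at 24 hr 58.3 RPKM with IL-13, against 89.1 RPKM in the control.

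In the Wnt list 2 of 25 genes were lower, WNT4 and WNT6, and none higher, with a median d of -0.12. The Notch list had 2 of 18 lower, MFNG and the target HEY1, which was at 2.84 RPKM with IL-13 and 7.89 RPKM in the control, and its median was -0.36. Of 28 squamous differentiation genes outside the dropped families 6 were lower and none higher, with a median of -0.39. They were THEM5, CLIC3 and LY6D of the 71, and C10orf99, BARX2 and LYPD3, whose d was already under -0.5 at 6 hr. At 6 hr LYPD3 had 7.60 RPKM with IL-13 and 13.7 RPKM in the control. C10orf99 had only 0.0735 RPKM with IL-13 and 0.156 RPKM in the control, and BARX2 0.162 RPKM and 0.309 RPKM. The early d of these last genes is uncertain at such levels. Among 31 squamous transcription factors OVOL1, DLX5 and DLX2 were lower and SOX2 higher, with a median of -0.27. SOX2 was at 105 RPKM with IL-13 and 49.2 RPKM in the control at 24 hr. In the basal cell surface list NGFR was the 1 of 14 lower and CD44 the 1 higher, with a median of -0.25.

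None of the 15 EGF receptor ligands and feedback genes (median d -0.04), 14 antimicrobial proteins (-0.18), 18 gap junction and channel genes (-0.32), 28 lipid genes (-0.09) or 26 cell cycle genes (-0.08) was 2-fold lower or higher at 24 hr. The lists of prostaglandin enzymes (16 genes, median -0.36) and retinoid metabolism (15 genes, -0.14) had 1 lower and 1 higher each, and the IL-4 and IL-13 signalling list (26 genes, 0.00) had 1 lower and 2 higher. From 6 to 24 hr in the controls, the median log2 change was 1.35 for the squamous differentiation list and 1.88 for the squamous transcription factors, against -0.80 for the cell cycle list and 0.24 for all genes.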

How the data were processed

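RNA of TE-7 cells was sequenced in 6 libraries and 3 histone marks in 6 ChIP-seq libraries, 1 sample per group. Each RNA table holds RPKM per gene and, from the authors, the log2 of the ratio between treatments and its p-value before and after adjustment. For peaks the authors deposited rescaled log2 values (M for library 1 over library 2, and a mean level) together with −log10 p, as the columns are headed. The build hg19 and the tools TopHat2 2.0.9, Bowtie 1.0.0, MACS2 2.0.10.20130712 and DESeq stand in the submitters' processing notes without their roles. The counting of reads, its strand setting, the annotation release and any pooling were not given in the sources used here. Since neither headers nor labels tie library 1 or 2 to a treatment, 6 columns of raw reads were not used.

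From RPKM, d was computed with a pseudocount of 0.1, which understates the ratios of low genes. Shares and medians were taken over 12278 genes that could have been chosen. Each gene was given the peak listed at its own start in the RNA tables, and the strongest of several. Whole reads were recovered at 24 hr only, where single steps fitted 90.6% of 233 low values of the IL-13 library and 92.2% of 206 of the control. On simulated data the rule recovered 200 of 200 changed genes. These were set well below the limit at 24 hr and close to the control earlier, so their recovery was fixed in advance. It checks the running of the rule only and says nothing of genes near the limits. Read recovery on simulated data gave a right length in 276 of 300 genes, a wrong one in 6 and none in the rest. Promoters came from RefSeq (GRCh38.p14). Alternatives changed the pseudocount, the limits, the centring, the families kept and the choice of peak. Scripts ran under Python 3.11.15 with pandas 2.3.3, NumPy 2.4.6, matplotlib 3.10.9 and SciPy 1.17.1.

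The 71 genes and the 14 gene lists were chosen with earlier results of these data known, and the roles and courses were assigned after the values were seen. Values in all 6 libraries are given for the 30 genes with the lowest d at 24 hr, the 30 with the highest control RPKM at 24 hr and those on a list. Some genes and list members are given by range only.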

Additional observations from a re-analysis of the deposited data

Results flagged for a closer look

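In 8 of the 71 genes d was above 0.5 at 2 or 6 hr and -1 or less at 24 hr, so that the IL-13 library stood on opposite sides of its control at 2 times. These differences between times were not tested, since each time has 1 library per treatment. At 2 hr d was 1.09 for THEM5, 0.99 for HIST1H2AE, 0.96 for SLC39A2, 0.64 for KLHDC7B, 0.57 for OR2A9P and 0.52 for SAMD11. At 6 hr it was 0.97 for PRKAG2-AS1 and 0.61 for LOC100652730. All 8 were under 1.5 RPKM in each library of 2 and 6 hr. THEM5 stood at 0.148 RPKM with IL-13 and 0.0162 RPKM in the control at 2 hr, and SLC39A2 at 0.213 RPKM with IL-13 and 0.0614 RPKM in the control.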

How the results depend on the processing

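No paired analysis was possible because the 2 treatments at a time share only 1 library number, and for the same reason no library could be left out. Pairing the treatments over the 3 times, which would average a difference chosen to be late, was not run. The number of late-lower genes, 71, became 33 with a pseudocount of 1 (25 of them among the 71), 25 with a minimum of 5 RPKM, 13 with d of -1.5 or less and 42 with d above -0.25 at 2 and 6 hr. It lay between 74 and 100 with a pseudocount of 0.01, a minimum of 0.5 RPKM, no minimum span, centring or the families kept. Without the criterion at 2 hr, whose control held brain transcripts, it was 79, and without that at 6 hr 90. These last alternatives, and the use of any start of a gene for peaks, were chosen after seeing the data. With a pseudocount of 1 the median d at 6 hr was -0.065, the median change from 6 to 24 hr was 0.31 in the IL-13 libraries and 1.09 in the controls, and centring moved that of the IL-13 libraries to 0.40. With peaks of a level of at least 30 the median M was 0.185 for H3K4me3 and 0.04 for H3K9Ac. Which of these limits bears on the biology was not tested. Depth limits the lowest genes: below 30 control reads, on the smallest reads that fit, an interval of the ratio spanned a wide range.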
